A study of Mus musculus with 3 samples.

Results

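The genes described here are 6 regulators of where a T cell goes: S1pr1, Klf2, Klf3, Ccr7 and Dapl1, treated as egress and homing genes, and Cd69, treated apart from them. They were chosen by symbol, with earlier results of these data known, and are 6 of 31053 genes measured. Counts of them set beside the share of all genes are therefore descriptions and not independent support. The cells were T cells from C57BL/6 mice bearing subcutaneous tumours of B16-Ova, a melanoma line, or MC38-Ova, a colon carcinoma line, both carrying ovalbumin. Tumours were taken on day 14 and cells sorted as positive for TCRβ, CD3 and CD90.2 and negative for CD11b. Cells of both tumours were tagged, mixed and run in 1 droplet capture that read RNA, a hashtag for the tumour, surface PD-1 and Tim-3, and binding of L-Pha. L-Pha is a plant lectin that binds branched N-glycans and was read through an antibody to biotin. The number of mice behind each hashtag was not given, so each tumour is 1 pool, and no capture without lectin was analysed here.

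S1PR1 is the receptor by which lymphocytes sense sphingosine-1-phosphate, which is abundant in blood and lymph and scarce inside tissue, and it draws cells out of tissue. KLF2 is a transcription factor of resting T cells that switches on S1pr1, and antigen receptor signals lower it. KLF3 is a related factor that binds the same kind of DNA motif, mostly as a repressor. CCR7 guides T cells to lymph nodes along the chemokines CCL19 and CCL21. CD69 is an early activation protein that binds S1PR1 at the cell surface and removes it, so its action on egress is on the protein and is not read by RNA. Dapl1 encodes death associated protein like 1, whose role in T cells is less well known.

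All 6 genes are protein-coding in the GENCODE annotation of GRCm38. Dapl1 lies at chr2:59484653-59505020, S1pr1 at chr3:115710433-115715072, Klf3 at chr5:64803388-64832901, Cd69 at chr6:129267325-129275436, Klf2 at chr8:72319033-72321656 and Ccr7 at chr11:99144196-99155077. S1pr1, Cd69 and Ccr7 are on the minus strand and the others on the plus strand.

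RefSeq promoter entries (GRCm38.p6) matched 3 of 6 genes, Klf2, Klf3 and Dapl1. They are shown because these 3 had an entry. All 6 genes moved with L-Pha in CD8 cells, and a link of these promoters to that difference was not tested. Each line gives the 250 bases before the RefSeq gene start, plus strand, with matches to 1 kind of motif in capitals. The windows are chr8:72318812-72319061 for Klf2, chr5:64803271-64803520 for Klf3 and chr2:59484403-59484652 for Dapl1. GENCODE places the Klf2 and Klf3 starts inside these windows.
Klf2: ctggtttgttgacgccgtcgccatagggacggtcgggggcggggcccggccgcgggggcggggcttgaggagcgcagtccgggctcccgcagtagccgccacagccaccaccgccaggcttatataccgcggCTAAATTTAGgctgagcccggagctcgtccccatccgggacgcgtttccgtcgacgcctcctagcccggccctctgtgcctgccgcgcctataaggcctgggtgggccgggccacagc
Klf3: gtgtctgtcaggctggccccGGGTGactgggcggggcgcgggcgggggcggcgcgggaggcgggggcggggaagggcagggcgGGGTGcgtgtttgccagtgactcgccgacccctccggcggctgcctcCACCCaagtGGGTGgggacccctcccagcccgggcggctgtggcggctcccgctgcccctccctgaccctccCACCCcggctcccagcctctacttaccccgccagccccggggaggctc
Dapl1: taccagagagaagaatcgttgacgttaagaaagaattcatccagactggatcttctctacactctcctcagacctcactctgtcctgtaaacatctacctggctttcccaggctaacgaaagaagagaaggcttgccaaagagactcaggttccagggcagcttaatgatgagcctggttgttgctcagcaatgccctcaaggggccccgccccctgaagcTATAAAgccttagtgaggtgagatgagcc
The capitals in Klf2 mark a match to the MEF2 consensus, searched on both strands, which are the same for it. MEF2 factors are known to bind this promoter. The match begins at base -118 from the start, and the consensus stands in 167 of 32851 promoters of this length (0.508%). The capitals in Klf3 mark CACCC or its reverse GGGTG, the box bound by KLF factors, with 5 matches that begin at -230, -167, -120, -111 and -48. CACCC on either strand is common and stands in 52.0% of promoters. The match at -111 is part of GGGTGGGG, a longer CACCC box found on either strand in 9.05% of promoters. Klf2 also holds 1 GGGTG, at -19, not capitalised. The capitals in Dapl1 mark TATAAA, at -29, which stands on either strand in 12.4% of promoters. These matches describe the letters and do not show binding.

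The tags on the cells were designed oligos, shown because the tumour, L-Pha and PD-1 groups rest on their counts.
Anti-biotin, for L-Pha: CGGTATATCAACAGA
PD-1: GAAAGTCAAAGCACT
Hashtag 1, B16-Ova: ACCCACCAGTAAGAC
Hashtag 2, MC38-Ova: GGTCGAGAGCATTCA

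Of 19912 barcodes, 18429 passed the filters of 500 genes or more and 10% mitochondrial UMIs or less, and 14992 of these carried 1 hashtag, 6585 from B16-Ova and 8407 from MC38-Ova. A UMI is a tag that counts 1 captured RNA molecule. The median cell held 6121 UMIs in B16-Ova and 6289 in MC38-Ova. Classes were set by raw UMIs of a few genes and held 4336 CD8 cells, 1737 regulatory T cells (Treg, with Foxp3), 1489 CD4 cells without Foxp3, and 1235 innate-like T cells with Cd3e and Fcer1g or Tyrobp. Most markers not used by the rule followed the classes. Levels are in CPM, UMIs of the gene scaled to a common total for each sum. Il2ra stood at 294 and 554 CPM in Treg of B16-Ova and MC38-Ova, and at 70.3 and 125 in CD4 cells. Klrb1c, a natural killer receptor gene, was at 136 and 128 CPM in innate-like cells against 6.04 and 18.7 in CD8 cells. Klre1 and Xcl1 were also higher in innate-like than in CD8 cells of both pools. Klrd1 did not separate these 2 classes, at 550 and 675 CPM in innate-like cells and 517 and 730.5 in CD8 cells. Of the CD4 markers, Cd40lg was 235 and 174 CPM in CD4 cells against 57.8 and 46.4 in Treg. Icos went the other way, at 846 and 930 CPM in CD4 cells and 1012.5 and 1386 in Treg. A Treg with a Cd4 UMI but no Foxp3 UMI captured counts as a CD4 cell under the rule. The 6 genes are not in the class rule. Barcodes with both hashtags, 2388 of them, were dropped. Doublets between tumours whose larger tag was at least 3 times the other were kept, and doublets within a tumour were not removed. Melanoma RNA was read in both pools. Pmel, a melanoma marker, was at 46.3 CPM in Treg of MC38-Ova and 5.92 in Treg of B16-Ova. In CD8, CD4 and innate-like cells it was higher in B16-Ova. The source of this RNA was not tested. UMIs were summed over the cells of a class and pool, and all p-values measure only the spread among sums from the same 2 pools, not among animals. Where a sum differs, fewer cells with the RNA and less RNA in each cell were not told apart unless a share of cells is given.

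S1pr1 had its highest level in CD4 cells of both pools, and none of the 6 class pairs passed the test for it at full depth. In B16-Ova it stood at 107 CPM in CD4, 76.0 in innate-like, 44.0 in Treg and 35.9 in CD8 cells, and in MC38-Ova at 79.1, 48.2, 57.7 and 52.2 CPM. The order below CD4 differed between the pools, with innate-like cells next in B16-Ova and lowest in MC38-Ova. CD8 cells were 0.95 ± 0.27 (SE) lower than CD4 cells on the log2 scale, -1.40 in B16-Ova and -0.45 in MC38-Ova (edgeR adjusted p = 0.077). Shares were compared after drawing 3000 UMIs from each cell, and shallower cells were left out: 125 and 235 CD8, 147 and 201 Treg, 216 and 196 CD4, and 35 and 61 innate-like cells of B16-Ova and MC38-Ova. Of the 1667 and 2309 CD8 cells kept, 12.0% and 15.8% held an S1pr1 UMI, against 27.0% and 21.1% of the 537 and 540 CD4 cells kept. At full depth the shares were 23.7% and 28.1% in CD8 and 33.6% and 29.9% in CD4 cells, whose median depth was 4107 and 4528 UMIs against 7358 and 6952.5 in CD8 cells. Among 26 non-immune cells of the capture, with a median of 54042 UMIs, 3 held an S1pr1 UMI at full depth (11.5%, exact 95% interval 2.45 to 30.2), and their level was 4.27 CPM. At 3000 UMIs, 0% of the 25 with enough depth held one.

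Klf2 spread widely over the classes of B16-Ova and little over those of MC38-Ova. It was 321 CPM in CD8, 251 in Treg, 545 in CD4 and 666 in innate-like cells of B16-Ova. In MC38-Ova the 4 classes lay close together, at 203, 235, 245 and 209 CPM. Endothelial markers were also read in innate-like cells of B16-Ova, with Cdh5 at 4.63 and Emcn at 5.02 CPM. Both were at 0 in innate-like cells of MC38-Ova, and their part in the Klf2 levels was not tested. No class pair passed the test for Klf2 at full depth. Its RNA is not restricted to T cells: the same 26 non-immune cells held 169 CPM, and 36% of the 25 with enough depth had a Klf2 UMI at 3000 UMIs. The T cell shares at that depth ran from 36.7% in CD4 cells of MC38-Ova to 65.0% in innate-like cells of B16-Ova, so a share of cells with Klf2 near the lower end is not above that of non-immune cells.

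Klf3 was highest in innate-like cells of both pools. It stood at 165 and 129.7 CPM in innate-like, 132 and 96.5 in CD4, 68.1 and 74.3 in CD8, and 53.6 and 68.8 in Treg cells of B16-Ova and MC38-Ova. The 2 lower classes did not overlap with the 2 upper ones. Klf3 was 2.06-fold lower in CD8 than in innate-like cells (log2 -1.04 ± 0.19, SE, edgeR adjusted p = 0.017) and 2.61-fold lower in Treg than in innate-like cells (log2 -1.38 ± 0.19, edgeR adjusted p = 0.0023). By pool the differences were -1.22 and -0.76 for CD8, and -1.73 and -1.04 for Treg. Treg against CD4 cells missed the threshold (log2 -0.89 ± 0.19, edgeR adjusted p = 0.053).

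Ccr7 was lowest in innate-like cells of B16-Ova and in Treg of MC38-Ova. Its levels in B16-Ova were 169 CPM in CD8, 142 in CD4, 127 in Treg and 80.6 in innate-like cells. In MC38-Ova they were 144, 94.1, 51.9 and 77.7 CPM. CD8 cells were highest in both pools, and CD8 exceeded Treg by 2.04-fold (log2 1.03 ± 0.24, SE, edgeR adjusted p = 0.028), by 0.59 in B16-Ova and 1.64 in MC38-Ova. CD8 against innate-like cells missed the threshold (log2 0.95 ± 0.25, edgeR adjusted p = 0.058).

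Dapl1 was higher in CD8 cells than in Treg and CD4 cells, and its difference from innate-like cells did not pass the test. Its level was 70.9 CPM in CD8 cells of B16-Ova and 22.1 in those of MC38-Ova, against 2.26 and 2.75 in Treg, 15.2 and 4.53 in CD4, and 13.1 and 19.5 in innate-like cells. CD8 and innate-like cells were close in MC38-Ova. At 3000 UMIs, 11.9% of CD8 cells of B16-Ova and 4.94% of those of MC38-Ova had a Dapl1 UMI, against 0.794% and 0.922% of Treg. CD8 exceeded Treg 17.7-fold (log2 4.15 ± 0.59, SE, edgeR adjusted p = 0.0035), by 4.97 and 3.07 in the 2 pools. The Treg levels rest on 13 and 19 UMIs, so the size of any fold against Treg is imprecise. CD8 exceeded CD4 cells 4.96-fold (log2 2.31 ± 0.52, edgeR adjusted p = 0.041), and this call was lost with stricter hashtags (adjusted p = 0.0735) or a stricter cell filter (adjusted p = 0.0544). CD8 against innate-like cells was 1.17 ± 0.48 on the log2 scale (edgeR adjusted p = 0.184), 2.47 in B16-Ova and 0.21 in MC38-Ova. Treg were 7.88-fold below innate-like cells (log2 -2.98 ± 0.66, edgeR adjusted p = 0.017).

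Cd69 was abundant in every class, with 371 and 584 CPM in CD8, 408 and 452 in Treg, 818 and 573 in CD4, and 703 and 577 in innate-like cells of B16-Ova and MC38-Ova. CD8 cells were the lowest class in B16-Ova and the highest in MC38-Ova. No class pair passed the test at full depth, and CD8 against Treg was 0.28 on the log2 scale (edgeR adjusted p = 0.48). The 26 non-immune cells held 2.85 CPM.

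Counted over the 6 genes, 2 of 6 were higher and 0 lower in CD8 than in Treg, where 15.5% of all 11188 genes were called in either direction. CD8 against CD4 called 1 of 6, with 6.88% of all genes, and CD8 against innate-like 1 of 6, with 8.13%. Treg against innate-like cells called 2 of 6, with 21.0% of all genes. Treg against CD4 cells and CD4 against innate-like cells called 0 of 6, with 3.34% and 9.47% of all genes. With 6 genes, none of these counts is read as particular to them. With cells thinned to 3000 UMIs and shallower cells left out, 10 further differences between classes passed, among them S1pr1 below CD4 cells in CD8 (log2 -0.77, edgeR adjusted p = 0.0281) and Treg (log2 -0.84, edgeR adjusted p = 0.033), and Cd69 in Treg below CD4 (log2 -0.65, edgeR adjusted p = 0.0249) and innate-like cells (log2 -0.68, edgeR adjusted p = 0.00703).

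**Figure D1:**
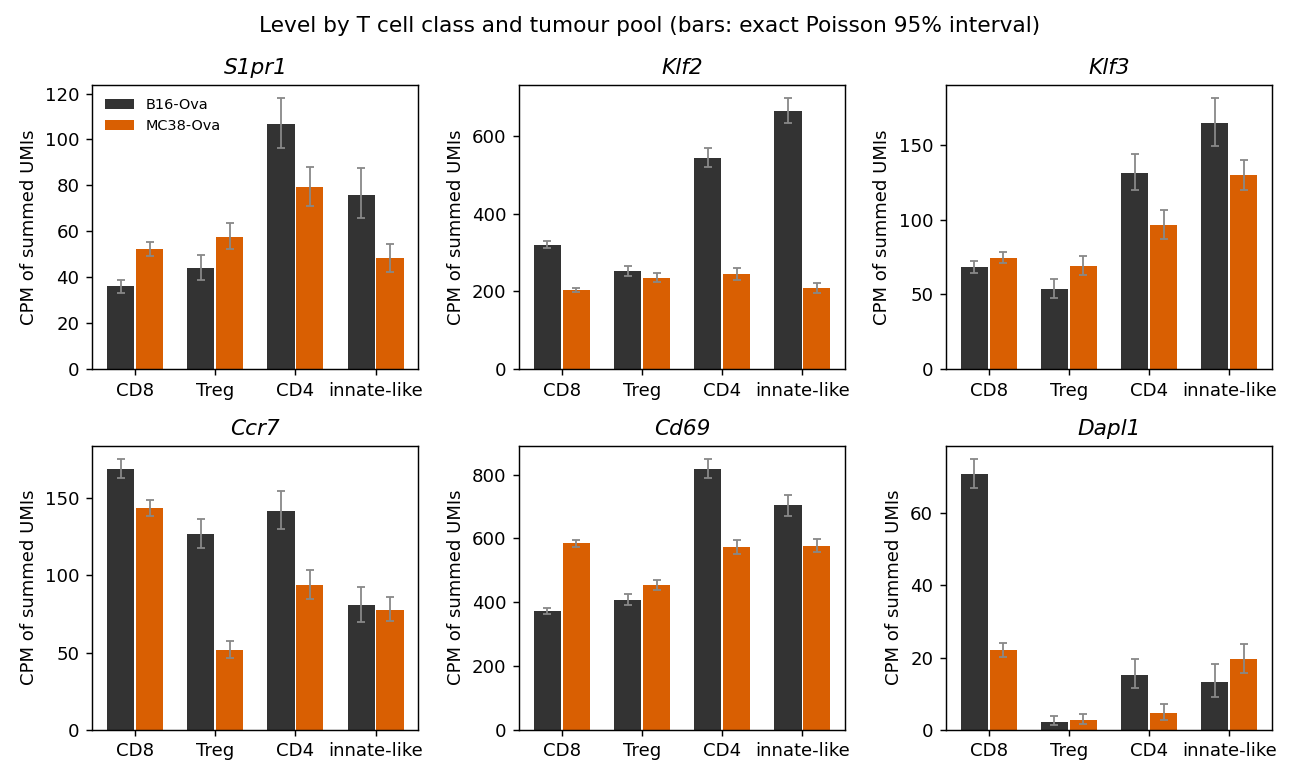
Level of each gene, in CPM of summed UMIs, by T cell class (horizontal axis) and tumour pool (black, B16-Ova; orange, MC38-Ova); bars on the columns are exact Poisson 95% intervals, which cover counting error only. Klf2 spreads from 251 to 666 CPM over the classes of B16-Ova and from 203 to 245 over those of MC38-Ova, and Dapl1 is 70.9 CPM in CD8 cells of B16-Ova.

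Of 16 genes of lymphoid homing and quiescence, 7 were higher and 3 lower in CD8 than in Treg, with a median log2 difference of 0.34 against 0.01 over all genes. Higher ones included Bach2 (1.42), a repressor of effector genes, Tcf7 (1.21), a factor of stem-like T cells, and Id3 (1.00). Against innate-like cells, 0 of 16 were higher and 8 lower in CD8, with Id3 at -1.09 and Il7r, the interleukin-7 receptor, at -0.94. Of 14 tested genes of sphingosine-1-phosphate signalling, 0 were higher and 2 lower in CD8 than in Treg, among them Gna13 (-0.67), a G protein subunit, where 15.5% of all genes were called.

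All 6 genes were lower in CD8 cells that bound the most L-Pha than in those that bound the least. Cells were ranked by L-Pha tag UMIs within each class and pool, and the top and bottom quartiles were summed and compared. For CD8 cells these held 451 low and 448 high cells of B16-Ova and 636 and 637 of MC38-Ova. S1pr1 stood at 95.1 CPM in L-Pha-low and 13.6 in L-Pha-high CD8 cells of B16-Ova, and at 89.5 and 34.6 in those of MC38-Ova. Both pools thus had similar S1pr1 in the low quartile and differed in the high quartile. The difference was 4.46-fold (log2 -2.16 ± 0.36, SE, edgeR adjusted p = 0.015), and -2.88 and -1.37 in B16-Ova and MC38-Ova. Klf2 was 829 CPM in low and 143 in high cells of B16-Ova, and 274 and 171 in MC38-Ova (log2 -1.74 ± 0.36, edgeR adjusted p = 0.025). Klf3 was 160.1 and 29.0 CPM, and 94.0 and 57.2 (log2 -1.70 ± 0.36, edgeR adjusted p = 0.026). For both factors the B16-Ova difference was the larger, -2.69 against -0.69 for Klf2 and -2.59 against -0.72 for Klf3.

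Ccr7 was 346 CPM in low and 102 in high cells of B16-Ova, and 164 and 95.02 in MC38-Ova (log2 -1.41 ± 0.29, SE, edgeR adjusted p = 0.025). Dapl1 was 135 and 32.1 CPM, and 37.4 and 18.1 (log2 -1.73 ± 0.32, edgeR adjusted p = 0.021). By pool, Ccr7 differed by -1.91 and -0.80 and Dapl1 by -2.20 and -1.03. Cd69 moved in the same direction as the egress genes, at 728 and 176 CPM in low and high cells of B16-Ova, and 875 and 429.9 in MC38-Ova (log2 -1.66 ± 0.22, edgeR adjusted p = 0.0094; -2.21 and -1.04 by pool). Thus 6 of 6 genes were called lower, where 2.67% of 9700 genes were called lower. As the 6 genes were chosen with earlier results of these data known, this count is a description.

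Over the 4 L-Pha quartiles the CD8 levels of S1pr1 fell in steps, at 95.1, 54.3, 24.9 and 13.6 CPM in B16-Ova and 89.5, 61.5, 46.3 and 34.5 in MC38-Ova. Klf2 in B16-Ova was 829, 509, 184 and 143 CPM, and in MC38-Ova 274, 208, 202 and 171. Ccr7 in MC38-Ova was not ordered in the first 3 quartiles, at 164, 187 and 165 CPM, and was 95.2 in the last. The plot of levels by L-Pha quartile shows these series for each class.

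**Figure D2:**
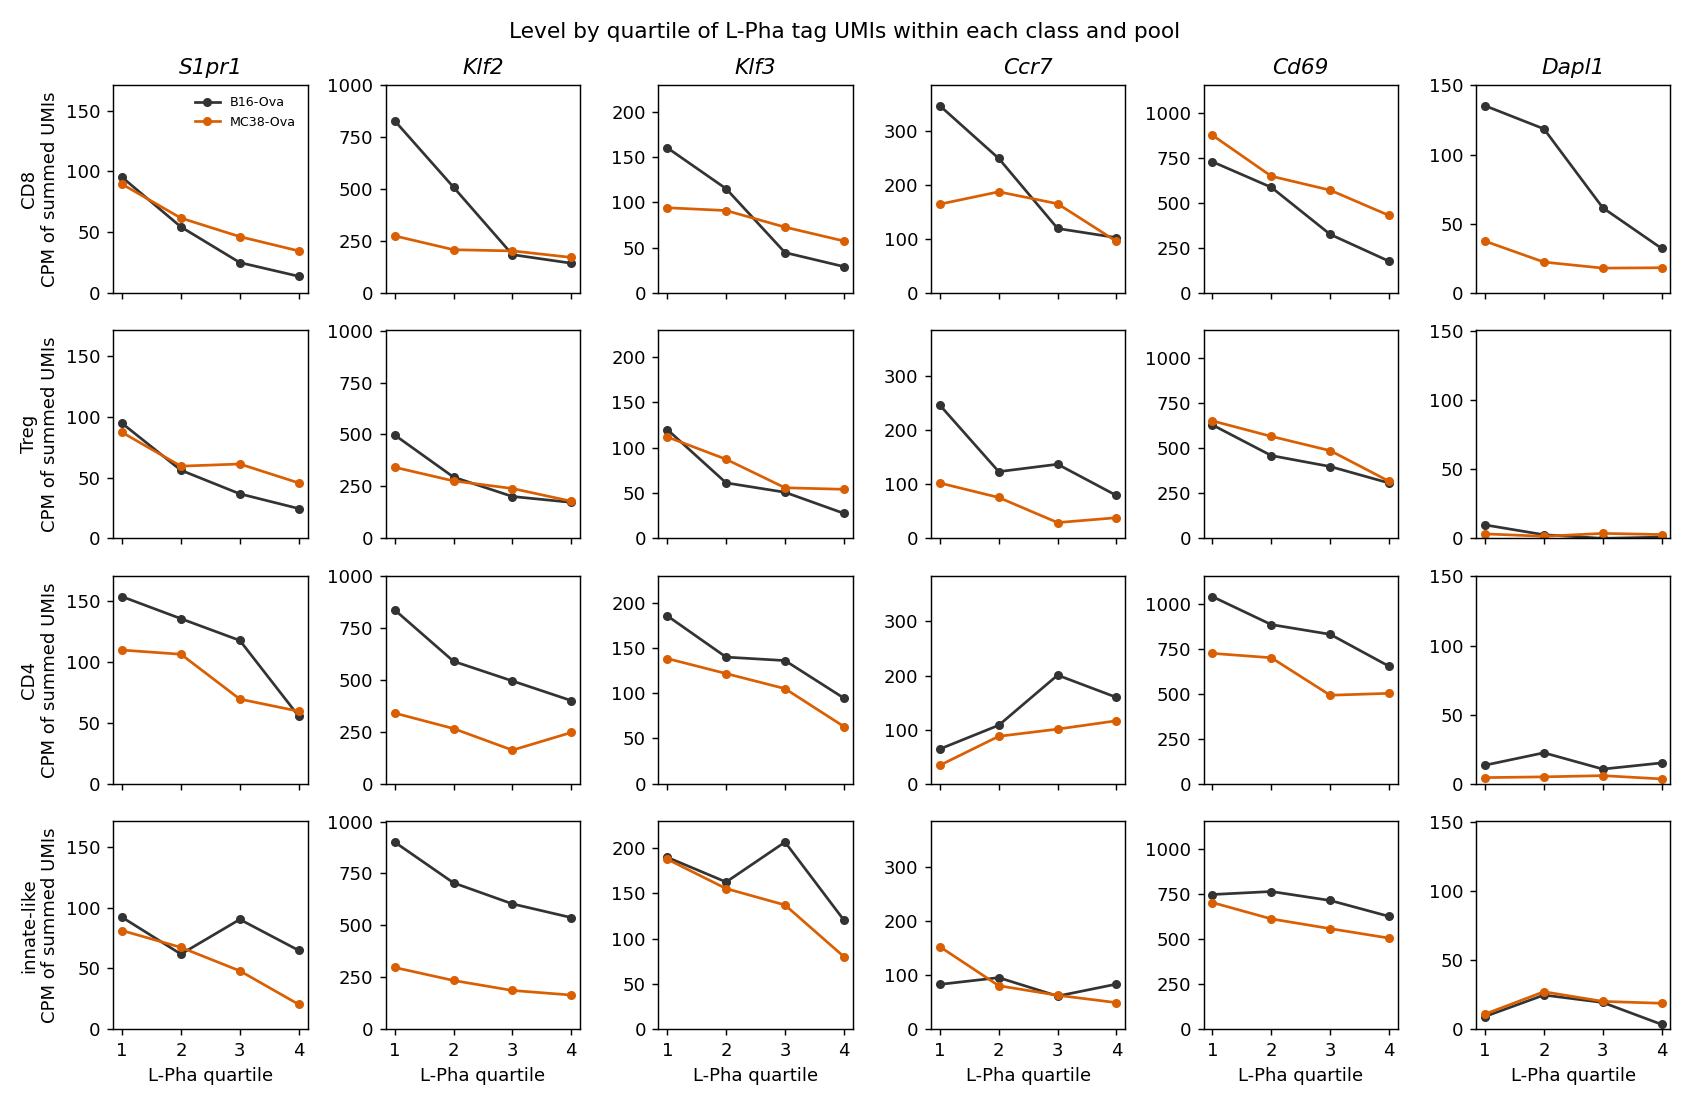
Level of each gene (columns), in CPM of summed UMIs, by quartile of L-Pha tag UMIs (1, lowest; 4, highest) in each class (rows); lines join the quartiles of 1 pool (black, B16-Ova; orange, MC38-Ova). In CD8 cells S1pr1 steps down over the quartiles, from 95.1 to 13.6 CPM in the B16-Ova pool and 89.5 to 34.5 in the MC38-Ova pool, while Ccr7 in CD4 cells is lowest in the first quartile, at 64.3 and 34.2 CPM.

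These are differences in the share of a cell's RNA, and L-Pha-high cells held more RNA. Their median was 13931 UMIs, compared with 5383 in L-Pha-low CD8 cells of B16-Ova, and in MC38-Ova the medians were 10614 and 4916.5. As UMIs per cell, S1pr1 was 0.519 in low and 0.214 in high cells of B16-Ova, and 0.470 and 0.419 in MC38-Ova. Cd69 was 3.97 and 2.76 UMIs per cell in B16-Ova, and 4.60 and 5.21 in MC38-Ova. All 6 genes were fewer per cell in the L-Pha-high cells of B16-Ova, while in MC38-Ova the 5 genes other than S1pr1 were more, for example Klf2 at 1.44 and 2.07. When high and low cells were taken within deciles of RNA depth, only Cd69 of the 6 genes still passed (log2 -0.77, edgeR adjusted p = 0.049). S1pr1 was then -1.14 (adjusted p = 0.158), Klf2 -0.86 (0.44), Klf3 -0.70 (0.307), Ccr7 -1.16 (0.122) and Dapl1 -1.72 (0.109). With each class fitted alone, Klf2 (edgeR adjusted p = 0.0792), Klf3 (0.0673) and Ccr7 (0.0548) missed the threshold. The tag of the cells' own hashtag also moved with L-Pha, with medians of 367 and 597.5 UMIs in low and high CD8 cells of B16-Ova and 348 and 691 in MC38-Ova.

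Markers of other cell types moved with L-Pha as well. The 4 melanoma markers, all detected, summed to 29.7 CPM in low and 536 in high CD8 cells of B16-Ova, and the fibroblast markers to 1.80 and 64.6 in MC38-Ova. The macrophage markers summed to 15.0 and 44.2 CPM in low and high cells of B16-Ova and to 13.2 and 69.9 in MC38-Ova. Of the colon carcinoma markers, Krt8 was at 0. A few cells carried most of this RNA: 40 of 1792 CD8 cells of B16-Ova (2.23%) held 4123 of 4622 such UMIs, and 76 of 2544 of MC38-Ova (2.99%) held 1322 of 2060. Without these cells, an alternative chosen after seeing the data, all 6 genes were still called lower in L-Pha-high CD8 cells. Dendritic cell, B cell and endothelial markers were not used to choose the cells removed, here or below. S1pr1 was then -2.07 (edgeR adjusted p = 0.0177) and Ccr7, the closest to the threshold, -1.24 (edgeR adjusted p = 0.0445).

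In Treg, 2 of 6 genes were called lower in L-Pha-high cells, where 0.753% of all genes were. Ccr7 was 246 CPM in low and 79.0 in high cells of B16-Ova, and 102 and 38.1 in MC38-Ova (log2 -1.53 ± 0.33, SE, edgeR adjusted p = 0.042), and Cd69 was 629.6 and 311, and 652 and 317 (log2 -1.02 ± 0.22, edgeR adjusted p = 0.044). Both calls were lost with stricter hashtags, a stricter cell filter, terciles in place of quartiles, within deciles of RNA depth, and without the cells that carry markers of other types (Ccr7 adjusted p from 0.0613 to 0.151, Cd69 from 0.0559 to 0.135). S1pr1 stood at 94.6 and 24.3 CPM in low and high Treg of B16-Ova and at 87.2 and 45.6 in MC38-Ova (log2 -1.40, edgeR adjusted p = 0.108). Klf2 and Klf3 missed the threshold in Treg with edgeR and passed with DESeq2 (DESeq2 adjusted p = 0.025 and 0.0226). The median depth of low and high Treg was 4008 and 10240 UMIs in B16-Ova and 3413 and 9077 in MC38-Ova, and fibroblast markers summed to 2.15 and 544 CPM in MC38-Ova.

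In CD4 and innate-like cells, 0 of 6 genes passed, where 0.309% and 0.237% of all genes did in either direction. This count depended on the fit: with each class fitted alone, S1pr1, Klf2, Klf3, Ccr7 and Cd69 passed in CD4 cells, with edgeR adjusted p from 1.5e-09 to 0.00457. In innate-like cells S1pr1, Klf2, Klf3 and Ccr7 then passed, from 0.000113 to 0.0334. A fit of 1 class leaves only 1 residual degree of freedom, which limits the weight of these p-values. Each direction was that of the joint fit, and the fit without a low-count filter gave these calls too. S1pr1 was 154 and 57.6 CPM in low and high CD4 cells of B16-Ova and 110.0 and 59.7 in MC38-Ova (log2 -1.16, edgeR adjusted p = 0.192). Ccr7 in CD4 cells lay the other way, at 64.3 and 156 CPM in B16-Ova and 34.2 and 116 in MC38-Ova (log2 1.48 ± 0.37, SE, edgeR adjusted p = 0.11). Per cell it was 0.225 and 1.06 UMIs in B16-Ova and 0.124 and 1.08 in MC38-Ova, so both scales and both pools had more Ccr7 in L-Pha-high CD4 cells. The L-Pha difference of Ccr7 in CD8 less that in CD4 cells was -2.89 on the log2 scale, with an edgeR adjusted p of 0.15. Of 72 such differences between classes tested over the 3 splits of cells, 0 passed and 17 were below an unadjusted p of 0.05.

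Most other genes of the homing list were also lower in L-Pha-high CD8 cells. This list, too, was chosen with earlier results of these data known. Of 16 genes, 13 were lower in L-Pha-high CD8 cells and 0 higher, with a median log2 difference of -1.52 against -0.00093 over all genes, and 9 of the 12 that are not members were among them. Within deciles of RNA depth, 6 of 9589 genes were called lower in all, so at least 7 of the 13 calls were lost. Id3 was -1.90 ± 0.44 (SE, edgeR adjusted p = 0.034), Tcf7 -1.64 ± 0.36 (0.028), Satb1, a chromatin organiser of T cells, -1.56 ± 0.40 (0.045) and Lef1, a partner of Tcf7, -1.56 ± 0.31 (0.025). Of 13 tested genes of sphingosine-1-phosphate signalling, 3 were lower: S1pr1, the related receptor S1pr4 (-0.81 ± 0.16, edgeR adjusted p = 0.025) and Gna13 (-0.79 ± 0.19, 0.042). Of 14 genes of tissue retention, 2 were lower, Cd69 and Itgae (-1.46, edgeR adjusted p = 0.040), the integrin that holds cells to epithelium. Of 17 immediate early and dissociation genes, which rise on activation or on handling of tissue, 8 were lower, with Zfp36 at -1.36, Hspa1a at -1.32 and Fos at -1.11.

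The egress genes were then compared between cells with and without Cd69 RNA, with each cell thinned to 3000 UMIs so that depth did not set the call. Cells were called by at least 1 Cd69 UMI, and Cd69 itself was not read. In CD8 cells, 726 cells of B16-Ova had none and 941 had one, and in MC38-Ova 819 and 1490. Klf2 was higher in cells with a Cd69 UMI in 4 of 4 classes. In CD8 cells it was 274 CPM without and 599 with Cd69 in B16-Ova, and 151 and 271 in MC38-Ova (1.99-fold, log2 0.99 ± 0.11, SE, edgeR adjusted p = 3.2e-06). In Treg it was 186 and 378 CPM, and 168 and 318 (1.96-fold, log2 0.97 ± 0.13, edgeR adjusted p = 9.4e-05). CD4 cells had 364 and 629 CPM in B16-Ova and 124 and 333 in MC38-Ova (2.12-fold, log2 1.08 ± 0.14, edgeR adjusted p = 6.0e-05). Innate-like cells had 475 and 816, and 155 and 266 (1.76-fold, log2 0.81 ± 0.14, edgeR adjusted p = 0.0049). In each of these 8 pairs the level with Cd69 was above the level without.

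S1pr1 and Klf3 were also higher in CD8 cells with Cd69 RNA. S1pr1 was 27.1 and 67.3 CPM without and with Cd69 in B16-Ova, and 52.1 and 70.5 in MC38-Ova (1.74-fold, log2 0.80 ± 0.18, SE, edgeR adjusted p = 0.013; 1.29 and 0.43 by pool). Klf3 was 55.6 and 130.4 CPM, and 75.3 and 97.5 (1.71-fold, log2 0.77 ± 0.16, edgeR adjusted p = 0.0074; 1.23 and 0.37 by pool). Ccr7 went in opposite directions, 141 and 225 CPM in B16-Ova and 176 and 139 in MC38-Ova (log2 0.16, edgeR adjusted p = 0.74). Dapl1 was 52.8 and 95.6 CPM in B16-Ova and 28.1 and 22.6 in MC38-Ova (log2 0.40, edgeR adjusted p = 0.50). Of the 5 egress and homing genes, 3 were thus higher and 0 lower in CD8 cells, where 1.22% of 8637 genes were called higher. In Treg, CD4 and innate-like cells Klf2 alone of the 5 passed, where 0.544%, 0.232% and 0.081% of genes were called higher. Ccr7 lay lower with Cd69 in CD4 cells of both pools, 176 and 98.0 CPM in B16-Ova and 130.3 and 61.2 in MC38-Ova, without passing (log2 -0.94 ± 0.24, edgeR adjusted p = 0.139).

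The calls for S1pr1 and Klf3 depended on the tool and on L-Pha. DESeq2 gave adjusted p = 0.277 for S1pr1 and 0.141 for Klf3. CD8 cells without a Cd69 UMI had a higher median L-Pha than those with one, at 695 and 367 tag UMIs in B16-Ova, and 400 and 344 in MC38-Ova. They also held more RNA before thinning, 10029 and 6826 UMIs, and 8195 and 7015.5. With cells matched on L-Pha quartile, an alternative chosen after seeing the data, Klf2 in CD8 cells stayed called (log2 0.69, edgeR adjusted p = 0.00104), and S1pr1 (0.49, adjusted p = 0.237) and Klf3 (0.51, adjusted p = 0.0643) did not. Klf2 stayed called in Treg (0.83, adjusted p = 0.00221) and CD4 cells (0.95, adjusted p = 0.00288), and not in innate-like cells (0.70, adjusted p = 0.0909). The melanoma markers summed to 427 CPM in CD8 cells of B16-Ova without Cd69 and 24.0 in those with it. Without the cells that carried most of that RNA, Klf2 was 1.00 (edgeR adjusted p = 8.39e-07), S1pr1 0.76 (0.0137) and Klf3 0.80 (0.00404). At 2000 UMIs per cell the Klf3 call in CD8 cells (adjusted p = 0.0685) and the Klf2 call in innate-like cells (log2 0.39, adjusted p = 0.383) were lost.

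**Figure D3:**
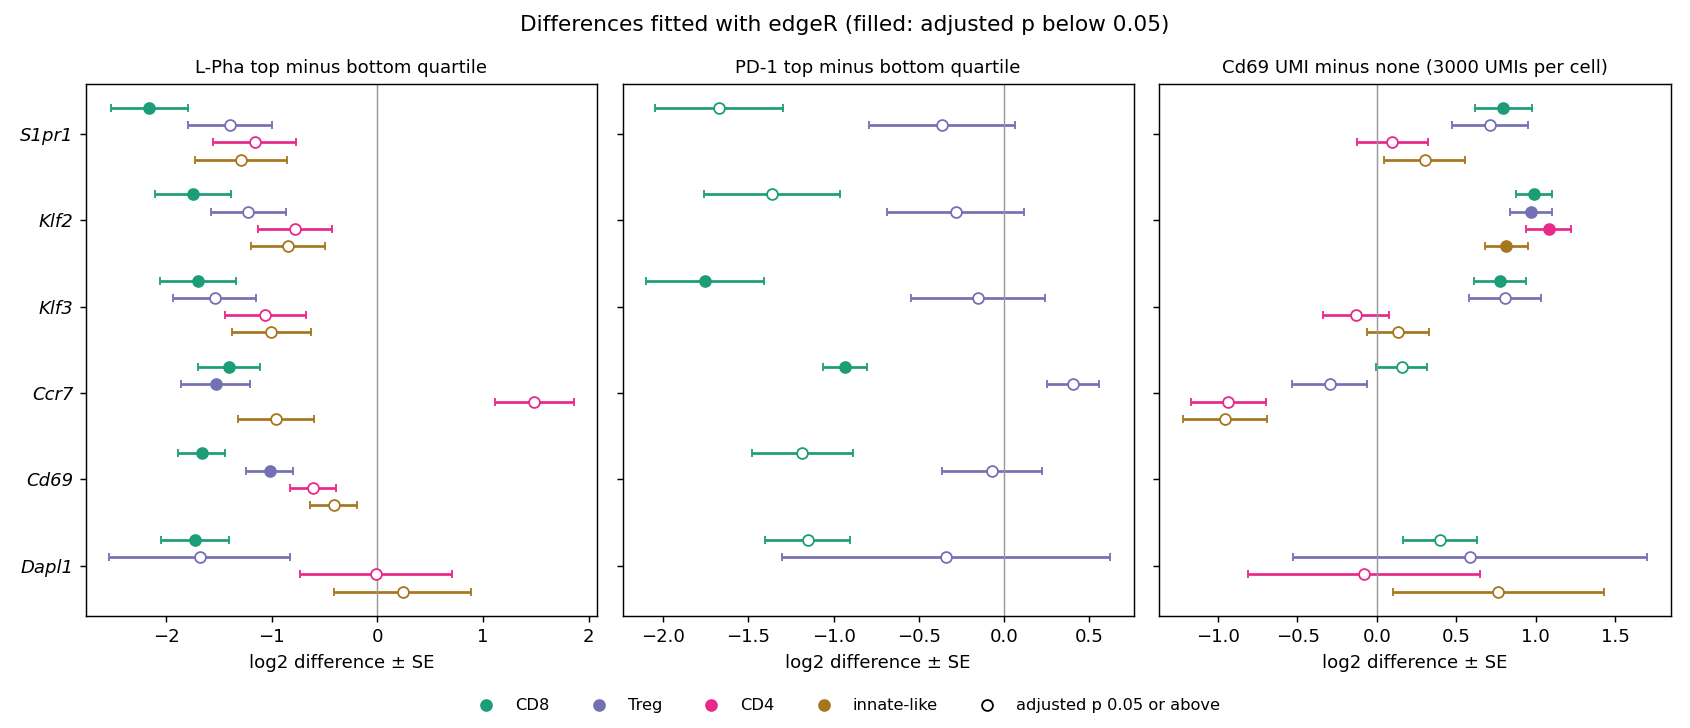
Log2 differences with SE for each gene (vertical axis) and class (colour), for L-Pha, PD-1 and Cd69 (panels); filled points have an edgeR adjusted p below 0.05. All 6 genes lie left of 0 with filled points for CD8 cells and L-Pha, and Klf2 lies right of 0 with filled points in 4 of 4 classes for Cd69.

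The level of Klf2 rose over grades of Cd69. In CD8 cells with 0, 1 to 2 and at least 3 Cd69 UMIs it stood at 274, 453 and 863 CPM in B16-Ova and at 151, 211 and 351 in MC38-Ova. In Treg the levels were 186, 341 and 449 CPM, and 168, 239.8 and 453. In CD4 cells of MC38-Ova they were 124, 233 and 478 CPM. S1pr1 in CD8 cells was 27.1, 65.3 and 70.9 CPM in B16-Ova and 52.1, 64.4 and 78.5 in MC38-Ova, with most of the B16-Ova step between 0 and 1 to 2 UMIs. Ccr7 ran up in B16-Ova, at 141, 210.3 and 250.5 CPM, and down in MC38-Ova, at 176, 165 and 106.

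**Figure D4:**
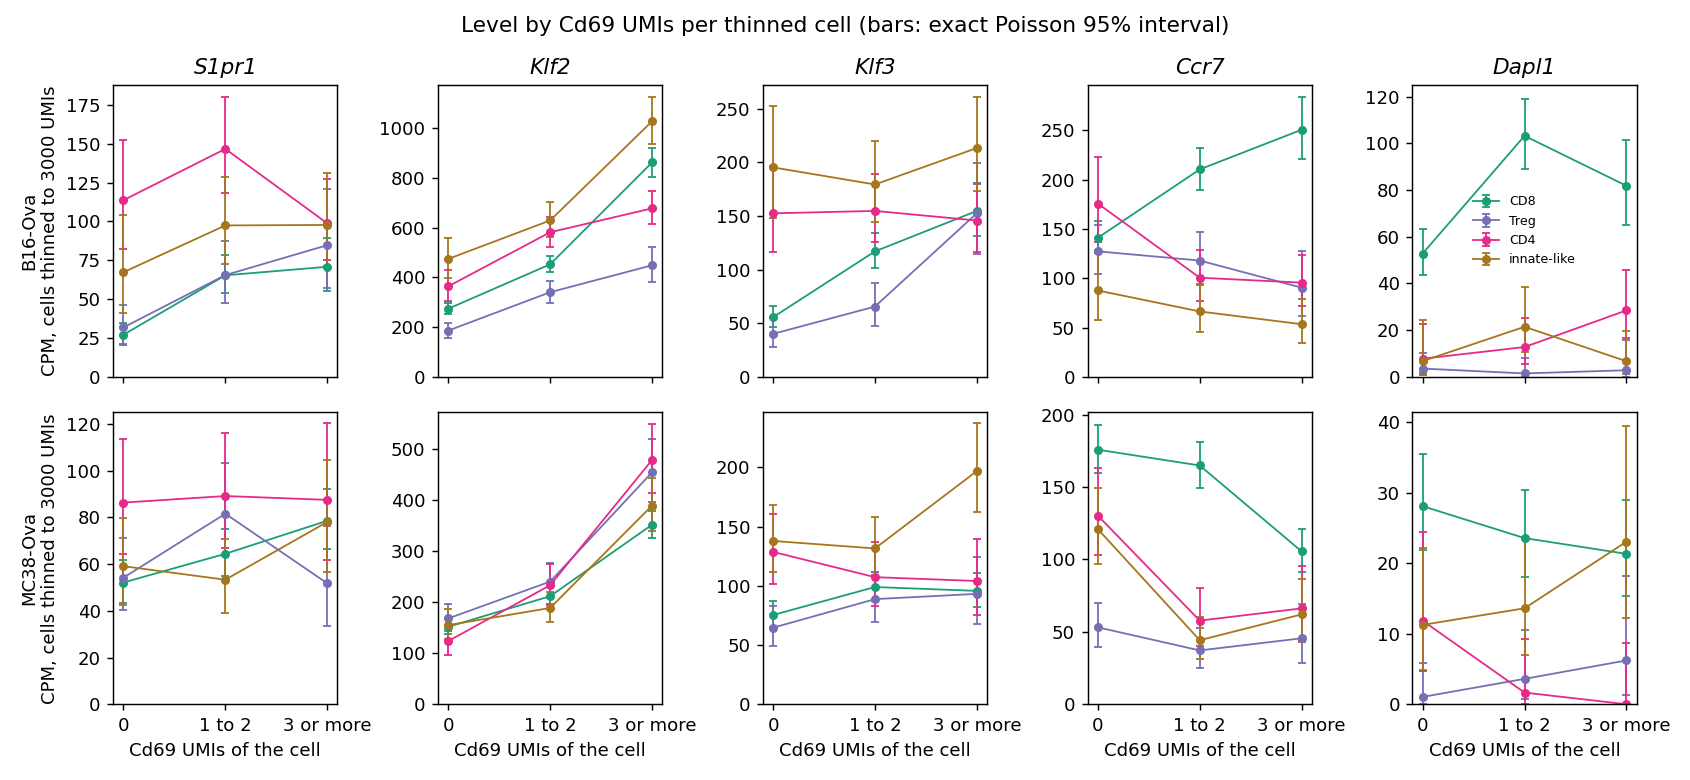
Level of the 5 egress and homing genes (columns) by Cd69 UMIs per cell (0, 1 to 2, 3 or more) in each pool (rows) and class (colour), in CPM of cells thinned to 3000 UMIs, with exact Poisson 95% intervals. Klf2 steps up in each of the 8 lines, and Ccr7 in CD8 cells goes up to 250.5 CPM in B16-Ova and down to 106 in MC38-Ova.

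Within CD8 cells of 1 L-Pha quartile, the S1pr1 difference lay mainly in the upper quartiles. In the lowest quartile of B16-Ova, S1pr1 was 114 CPM without and 104 with a Cd69 UMI, and in the highest it was 2.41 and 42.2. The 2.41 CPM rests on 2 UMIs in 277 cells. In MC38-Ova the lowest quartile had 92.7 and 105 CPM and the highest 23.6 and 46.1. Klf2 in the lowest quartile of B16-Ova did not differ by Cd69, at 892 and 884 CPM, and in the highest it was 111 and 243. In MC38-Ova it was higher with Cd69 in all 4 quartiles, from 241 and 318 CPM in the lowest to 102 and 205 in the highest. Dapl1 in MC38-Ova turned over, with 72.8 and 26.7 CPM in the lowest quartile and 9.19 and 24.5 in the highest. These values are single sums without a test.

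**Figure D5:**
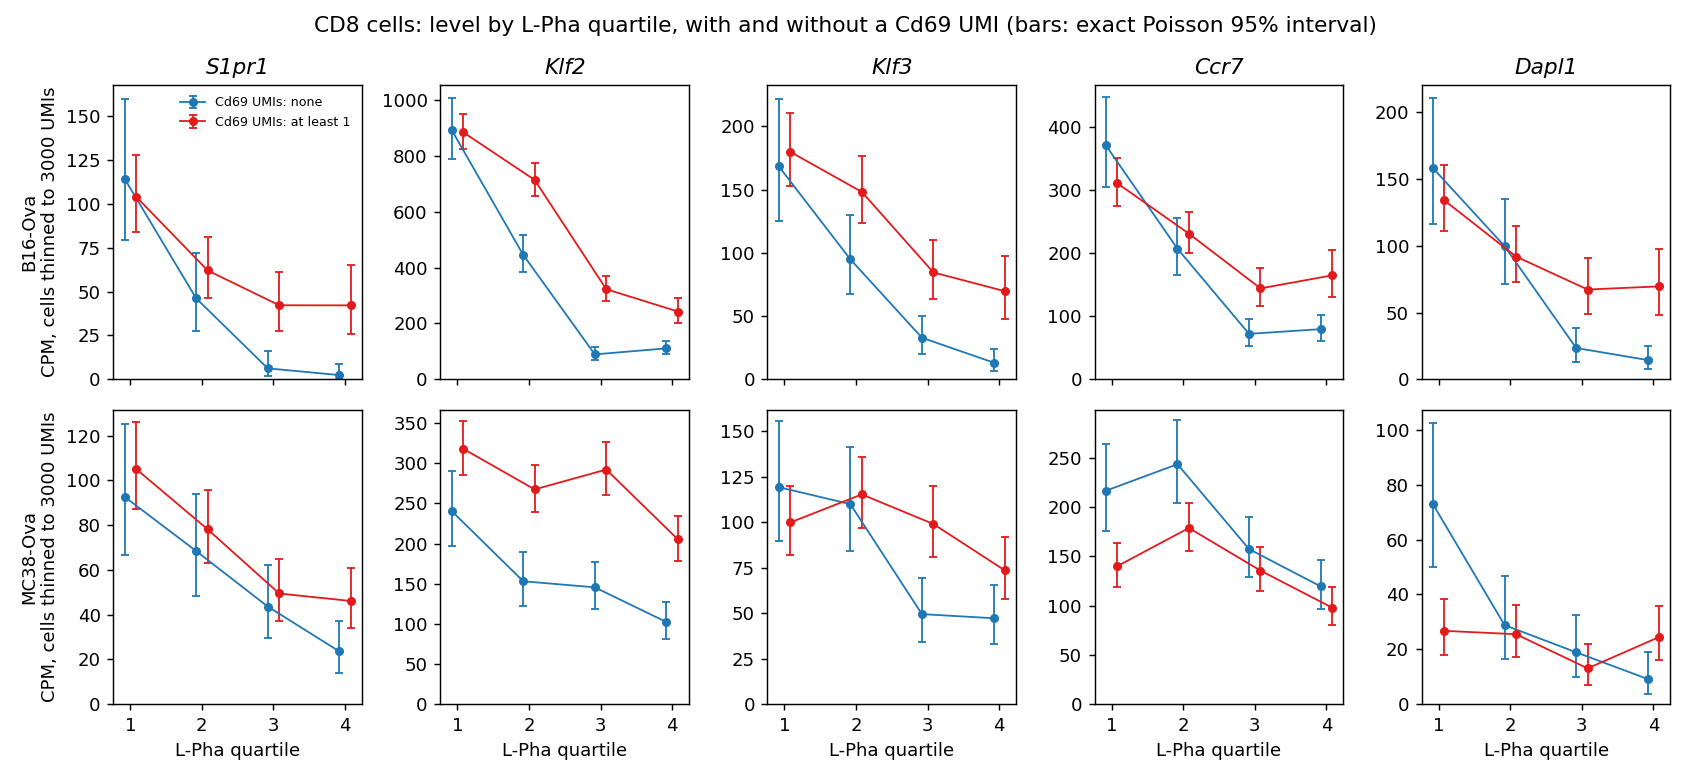
Level of the 5 egress and homing genes in CD8 cells (columns) by L-Pha quartile, for cells without (blue) and with (red) a Cd69 UMI, in B16-Ova (top) and MC38-Ova (bottom), in CPM of cells thinned to 3000 UMIs, with exact Poisson 95% intervals. In the highest quartile of B16-Ova S1pr1 is 2.41 CPM without and 42.2 with Cd69, and in that of MC38-Ova 23.6 and 46.1, while in the lowest quartile the intervals overlap in both pools.

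Some immediate early genes were higher with Cd69 RNA in each of the 4 classes. Of 17 on the list, 12 were higher in CD8 cells with Cd69, with a median log2 difference of 0.65 against -0.01 over all genes, and 12 in Treg, 8 in CD4 and 4 in innate-like cells. In CD8 cells Fos was 1.45 higher, Zfp36 1.29, Fosb 1.09 and Klf4 1.05. The list holds genes that tissue handling raises, and its part in the Klf2 difference was not tested. Of the 16 homing genes 8 were higher in CD8 cells with Cd69, with a median of 0.59, and 6 of these are not members, among them Id3 (1.01, edgeR adjusted p = 0.013), Il7r (0.79, 0.0029) and Tcf7 (0.79, 0.015). In Treg, CD4 and innate-like cells 1 of 16 was higher, Klf2 itself. Of 13 retention genes without Cd69, 1 was lower in CD8 cells, the chemokine receptor gene Cxcr6 (-0.52, edgeR adjusted p = 0.021). Of 13 sphingosine-1-phosphate genes only S1pr1 was called in CD8 cells.

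PD-1, an inhibitory receptor that rises on chronically stimulated T cells, was used for another split of cells, by quartiles of its tag. The tag counts were low. Medians in low and high CD8 cells were 11 and 35 UMIs in B16-Ova and 12 and 32 in MC38-Ova. In Treg they were 12 and 32, and 11 and 27. The own hashtag moved as well, from 384 to 571 UMIs in CD8 cells of B16-Ova and from 394 to 616 in those of MC38-Ova. In CD8 cells Ccr7 and Klf3 were lower in the PD-1-high quartile. Klf3 was 134 CPM in PD-1-low and 26.5 in PD-1-high cells of B16-Ova, and 111 and 53.8 in those of MC38-Ova (3.37-fold, log2 -1.75 ± 0.35, SE, edgeR adjusted p = 0.043). Ccr7 was 246 and 143 CPM, and 199 and 106 (1.91-fold, log2 -0.93 ± 0.13, edgeR adjusted p = 0.016). The Klf3 call was lost with terciles in place of quartiles (adjusted p = 0.0733) and the Ccr7 call within deciles of RNA depth (adjusted p = 0.119). S1pr1 was 77.0 and 15.2 CPM in B16-Ova and 76.0 and 39.6 in MC38-Ova, and missed the threshold (log2 -1.67 ± 0.38, edgeR adjusted p = 0.062). Dapl1 (-1.15, adjusted p = 0.056), Cd69 (-1.18, 0.083) and Klf2 (-1.36, 0.12) missed it too. Dapl1 passed in 7 alternatives, among them the fit within deciles of RNA depth (edgeR adjusted p = 0.00591), and S1pr1 in 5, among them strict hashtags (edgeR adjusted p = 0.0469). Klf2 and Cd69 passed only without a low-count filter. Thus 2 of 6 were called, where 1.21% of 10127 genes were called lower.

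PD-1-high CD8 cells also bound more L-Pha, with medians of 892 and 264 UMIs in high and low cells of B16-Ova and 563 and 272 in MC38-Ova, and had more RNA, 11936 and 6005 UMIs, and 8870 and 5978. Ccr7 per cell was 1.70 UMIs in low and 2.02 in high cells of B16-Ova, and 1.33 and 1.10 in MC38-Ova. Of the 16 homing genes 6 were lower with PD-1 in CD8 cells, with a median of -1.19 against -0.02 over all genes, among them Id3 (-1.68), Tcf7 (-1.54) and Lef1 (-1.51). In Treg 0 of 6 genes were called, and edgeR called 0 of 10127 genes (0.0%), with 341 at an unadjusted p below 0.05 and 1 called by DESeq2. Ccr7 in Treg was 118 and 139.9 CPM in PD-1-low and PD-1-high cells of B16-Ova and 46.6 and 70.7 in those of MC38-Ova. The PD-1 difference of Ccr7 in CD8 less that in Treg was -1.34 ± 0.20 (SE) and did not pass (edgeR adjusted p = 0.20).

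Between tumours there was 1 pool each, so the values are ratios of MC38-Ova to B16-Ova with exact conditional 95% intervals for counting error and no test. In CD8 cells Cd69 was 1.57-fold (1.53 to 1.62) and S1pr1 1.45-fold (1.31 to 1.60) the B16-Ova level, Klf2 0.633 (0.608 to 0.659) and Dapl1 0.311 (0.279 to 0.346). S1pr1 and Klf2 thus lay on opposite sides of 1 in the same class. In innate-like cells Klf2 was 0.314 (0.290 to 0.339) and S1pr1 0.634 (0.524 to 0.769), and in CD4 cells Klf2 was 0.449 (0.416 to 0.485), Ccr7 0.663 (0.580 to 0.757) and Cd69 0.700 (0.663 to 0.739). In Treg Ccr7 was 0.409 (0.360 to 0.465) and Klf2 0.934 (0.869 to 1.00). Of genes with at least 100 UMIs, past 1.5-fold either way were 3 of 6 in CD8 cells (Cd69 higher, Klf2 and Dapl1 lower), where 11.2% of genes were, and 1 of 5 in Treg, where 8.54% were. In CD4 cells 2 of 5 passed, Klf2 and Ccr7, where 6.39% did. Ccr7 lay within 1.5-fold with strict hashtags (0.771), with Scrublet doublets removed (0.669) and without cells carrying markers of other types (0.683), which leaves 1 of 5. In innate-like cells 2 of 6 passed, S1pr1 and Klf2, where 5.92% of genes did. At 3000 UMIs per cell, Cd69 in CD8 cells was 492.5 CPM in B16-Ova and 638 in MC38-Ova, within 1.5-fold. S1pr1 in innate-like cells (90.5 and 61.7) and Ccr7 in CD4 cells (117 and 86.4) lay within it too. In CD8 cells S1pr1 was then 49.8 and 64.0 CPM. Klf2 (457 and 229) and Dapl1 (77.0 and 24.5) there stayed past 1.5-fold. Dapl1 was under 100 UMIs in Treg and CD4 cells. Cd69 was higher in MC38-Ova in CD8 cells (1.57-fold) and Treg (1.11-fold) and lower in CD4 (0.700) and innate-like cells (0.821).

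Across 32 sums, 1 for each class, pool and L-Pha quartile, S1pr1 and Cd69 levels ran together (Pearson r = 0.874 on log2 CPM). The sums share a capture, and their depth and L-Pha rank differ, so this is a description. The genes most like S1pr1 among 5389 with a mean of at least 20 CPM were Gm26740 (0.908), Stk17b (0.902), Gpr183 (0.896), Ripor2 (0.877) and Cd69 (0.874). Those most like Cd69 were Ssh2 (0.908), Ripor2 (0.892), Slc38a2 (0.887), Rnf138 (0.886) and Galnt10 (0.877). Over all 32 sums Ccr7 and Dapl1 followed neither: Ccr7 had r = 0.117 with S1pr1 and 0.175 with Cd69, and Dapl1 had -0.04 with S1pr1. These values mix classes that differ. Within CD8 cells Ccr7 had r = 0.782 with S1pr1 and 0.685 with Cd69, and within CD4 cells -0.360 and -0.157. Dapl1 with S1pr1 ran from -0.245 in innate-like cells to 0.780 in Treg, where Dapl1 was scarce. Klf3 and Cd69 had 0.866, and Klf2 and S1pr1 0.708.

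In CD8 cells Ccr7 and Dapl1 were partly in the same cells. At 3000 UMIs, 120 CD8 cells of B16-Ova held both (7.20%, exact 95% interval 6.00 to 8.55) and 56 of MC38-Ova did (2.43%, 1.84 to 3.14). Ccr7 without Dapl1 was seen in 285 and 406 cells, and Dapl1 without Ccr7 in 78 and 58. S1pr1 stood at 117 and 107 CPM in cells with both and at 36.6 and 57.6 in cells with neither. Klf2 stood at 786 and 286 CPM with both and at 339 and 218 with neither. Cd69 was 517 CPM with both and 455 with neither in B16-Ova, and 512 and 662 in MC38-Ova. Median L-Pha was 283.5 and 326 UMIs in cells with both and 564.5 and 381 in cells with neither. Cells with both genes thus had more S1pr1 and less L-Pha than cells with neither in both pools, while Cd69 lay on different sides. Cells with only 1 of the genes lay the same way for S1pr1 and L-Pha. With Ccr7 alone S1pr1 was 77.2 and 82.1 CPM and median L-Pha 336 and 331. With Dapl1 alone they were 47.0 and 92.0 CPM, and 336.5 and 281.5. Klf2 in MC38-Ova was higher with Dapl1 alone, at 333 CPM, than with both. The S1pr1 levels with both rest on 42 and 18 UMIs, and those with Dapl1 alone on 11 and 16, so they are imprecise.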

How the data were processed

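RNA, hashtag and antibody-tag counts were read from 1 droplet capture of tumour-infiltrating T cells. The submitters' processing notes name mm10, Cell Ranger 3.1.0, R 3.6.1 and Seurat 3.1.0, without saying in which step each served, and the matrix carries software version 3.0.2 per the file headers. The values the authors deposited are raw UMI counts per gene and barcode, from 500 RNA UMIs per barcode upward. The counting annotation is not given in the sources used here. The receptor sequence library is not analysed here.

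Cells had at least 500 genes, at most 10% mitochondrial UMIs, and 1 hashtag with at least 150 UMIs and at least 3 times the other. CD8 cells had at least 2 UMIs of Cd8a and Cd8b1 and 0 of Cd4 and Foxp3. Treg had Foxp3, and CD4 cells had Cd4 without Foxp3, both with 0 of Cd8a and Cd8b1. Innate-like cells had Cd3e, at least 2 UMIs of Fcer1g and Tyrobp, 0 of Cd4 and Foxp3, and at most 1 of Cd8a and Cd8b1. Sums per class and pool held 2592067 to 20937848 UMIs.

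Sums were tested with edgeR 4.0.16 in R 4.3.3 (TMM, filterByExpr, quasi-likelihood test, Benjamini-Hochberg adjustment over all genes, threshold 0.05). The class fit took 8 sums with class and pool as terms (3 residual degrees of freedom). The L-Pha and Cd69 fits took 16 sums each (4 residual degrees) and the PD-1 fit 8 sums of CD8 and Treg cells (2 residual degrees), with class and pool as blocks and 1 difference per class. In simulated data drawn from the sums, the fits recovered 4-fold changes in CD8 cells at 93.9% (class, CD8 against Treg, 11188 genes), 92.4% (L-Pha, 9700 genes), 98.5% (PD-1, 10127 genes) and 92.4% (Cd69, 8638 genes). For 1.5-fold changes the shares were 38.8%, 13.4%, 19.4% and 38.8%. The false share of calls was 5.84%, 6.84%, 0% and 9.68%. Tumours were compared by CPM ratios with exact conditional intervals, without a test. Shares have exact Clopper-Pearson intervals. All intervals cover counting error only.

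The members and lists were chosen with earlier results of these data known. Each list named up to 4 genes with the largest change among those past the test with a mean of at least 20 CPM. Alternatives included DESeq2 1.42.0, filters, depth and doublet settings. 1 gene that this rule would name is not reported here.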

Additional observations from a re-analysis of the deposited data

How the results depend on the processing

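No paired analysis was possible because the labels give no replicate numbers and each tumour is 1 pool. The L-Pha, PD-1 and Cd69 fits do compare high and low sums within each pool. With 1 pool left out, a difference has no residual spread and is a value without a test, given by pool above. DESeq2's own filter left fewer genes in some comparisons, such as 2554 for L-Pha and 2273 for Cd69 in CD8 cells, and gave no adjusted p for Dapl1 in L-Pha-high CD8 cells. The cause of the changes below was not tested.

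Class differences: genes called in CD8 against CD4 were 770, but 1326 (797 higher, 529 lower) without a low-count filter and 1467 (770 and 697) without cells carrying other types' markers. In CD8 against innate-like they were 910, but 1455 (946 and 509) and 1484 (779 and 705), and in Treg against CD4 374, but 707 (390 and 317), 630 (358 and 272) and, with thinned cells, 685 (386 and 299). The log2 difference of S1pr1 in CD8 against Treg turned sign, from -0.084 to 0.0695 with thinned cells. That of Cd69 in CD4 against innate-like cells, -0.0037, also turned sign. This log2 difference was 0.0008107 with DESeq2, 0.01546 without the filter, 0.009428 with strict hashtags and 0.00485 with Scrublet doublets removed.

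L-Pha: CD8 calls were 523 (264 higher, 259 lower), but 125 (46 and 79) with DESeq2, 1251 (749 and 502) without the filter, 81 (59 and 22) with 1 fit per class, 254 (133 and 121) with strict hashtags and 19 (13 and 6) within RNA deciles. Treg calls were 152, but 57 (19 and 38), 705 (443 and 262), and 32 (22 and 10) with strict hashtags, 231 (108 and 123) with Scrublet, 65 (36 and 29) without other-type cells and 7 within deciles. CD4 calls were 30, but 543 (392 and 151) without the filter, 624 (376 and 248) with 1 fit per class, 15 with strict hashtags, 12 without other-type cells and 8 within deciles. Innate-like calls were 23, but 304 (259 and 45), 209 (151 and 58), 15 with Scrublet, 1 without other-type cells, 11 with terciles and 7 within deciles. The log2 difference of Dapl1 turned sign in CD4 cells (0.01714 with 1 fit per class, 0.23 with strict hashtags, 0.24 without other-type cells). It also turned sign in innate-like cells (-0.0904 with DESeq2, -0.15 with terciles, -0.95 within deciles).

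PD-1: CD8 calls were 301 (178 higher, 123 lower), but 183 (109 and 74) with DESeq2, 1139 (608 and 531) without the filter and 466 (296 and 170) within deciles. Treg calls were 0 with edgeR and 341 genes at an unadjusted p below 0.05, but 1 with DESeq2, 77 (40 and 37) without the filter, 2 with strict hashtags, 2 with the strict cell filter, 1 without other-type cells and 11 (7 and 4) within deciles. In Treg the sign of the log2 difference turned within deciles for S1pr1 (log2 0.0333), Klf2 (0.062) and Cd69 (0.0458). With strict hashtags it turned for Cd69 (log2 0.00191) and Dapl1 (0.88). S1pr1 in CD8 cells passed with DESeq2 (adjusted p = 0.00463).

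Cd69: CD8 calls were 197 (105 higher, 92 lower), but 36 (32 and 4) with DESeq2, 129 (66 and 63) at 2000 UMIs and 97 (58 and 39) matched on L-Pha. Treg calls were 63, but 32 (31 and 1) with DESeq2 and 121 (81 and 40) without the filter. CD4 calls were 22, but 14, 58 (45 and 13) and, at 2000 UMIs, 36 (30 and 6), and innate-like calls 11, but 6, 45 (25 and 20) and 19 (12 and 7). The log2 differences that follow turned sign. Matched on L-Pha, Ccr7 in CD8 cells was -0.10 and Dapl1 -0.39 in Treg and 0.14 in CD4 cells. At 2000 UMIs Ccr7 was 0.18 in Treg, S1pr1 -0.0631, Klf3 0.16 and Dapl1 0.26 in CD4 cells, and S1pr1 -0.0276 and Dapl1 -0.24 in innate-like cells. Dapl1 in CD4 cells was also 0.29 with strict hashtags, 0.0326 with Scrublet and 0.0948 when split at 2 UMIs.

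Of 22 tumour ratios, 1 moved past its interval without other-type cells and 3 with strict hashtags, among them Dapl1 in innate-like cells at 2.28. At 2000 UMIs per cell, 36 of 48 shares of cells with a UMI moved past their intervals.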
